A study of Mus musculus with 8 samples.

Results

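The ubiquitin ligases of muscle wasting, the FoxO factors that switch them on, the sestrins and the stress genes Gadd45a and Bnip3 were followed in mouse muscle cells made to express histone deacetylase 4 (HDAC4). A search of the platform annotation for 10 gene symbols found 10 probes that name a single gene of the set, out of 31769 probes in the table and 18976 that name 1 gene. They cover 9 of the 10 genes, out of 14510 genes with a named probe, with 2 probes for Sesn3 and 1 for each of the others. No probe is named for Trim63 in the annotation used here, so that ligase was not analysed here. All 10 probes carried a value on all 8 arrays, 80 values in all, and passed the filter on missing values.

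Both groups of cells came from C2C12, an established myoblast line from C3H mice that fuses into myotubes when serum is lowered. The 4 HDAC4 samples were cells stably selected after infection with a retrovirus expressing HDAC4, and the 4 Neo samples were cells selected with a control retrovirus. Cells of either kind were differentiated from 90% confluence through 4 days in 2% horse serum, after which total RNA was taken. Each array held the RNA of 1 sample in the Cy5 channel and a common murine reference RNA, for which a labelling protocol names liver, in the Cy3 channel. Whether the samples of a group were separate cultures is not in the labels, so the spread behind each p-value may be technical. No probe is named for Hdac4, so the labels were not checked against the gene that the virus carried.

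When muscle loses its nerve supply or its growth signals, protein is broken down faster than it is made. The ligases Fbxo32 (atrogin-1, MAFbx) and Trim63 (MuRF1), and the F-box protein Fbxo30 (MUSA1), tag muscle proteins for the proteasome. FoxO factors, which Akt signalling keeps out of the nucleus, drive these genes. In denervated muscle class IIa deacetylases such as HDAC4 are known to repress Dach2, which releases myogenin, and myogenin in turn activates Fbxo32 and Trim63. Sestrins are stress-induced proteins that restrain the growth kinase complex mTORC1 and favour AMPK. Gadd45a, also known to be induced in denervated muscle, and the mitophagy receptor Bnip3 complete the set.

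The promoters were searched for the FoxO element because it is the sequence through which FoxO factors reach such targets. RefSeq sequence of GRCm38.p6, reaching from 250 bases before to 50 bases after the annotated start, was at hand for 9 of the 10 genes and 10 starts. The missing gene was Fbxo32, whose promoter was therefore not searched. The element GTAAACA was found on either strand in 2 of the 10 windows, against 3.65% of 32851 windows of all genes. A match lies at the first of the 2 Sesn1 starts (chr10:41810324-41810623, plus strand), with the match beginning 22 bases after the start. The other is Trim63 (chr4:134314870-134315169, plus strand), with the match beginning at -194. The MEF2 element (CTA, any 4 bases, then TAG) was in 0 of the 10 windows, against 3.69% of all windows. The E-box CANNTG, the element of myogenin and its relatives, was in 5 of 10, against 72.3% of all windows. A match is a description of the letters and not of binding. Both windows are shown as the places among the windows searched where the FoxO element was found. Capitals mark the FoxO element, which reads TGTTTAC on the strand shown, and in Trim63 they also mark 3 E-boxes.
Sesn1: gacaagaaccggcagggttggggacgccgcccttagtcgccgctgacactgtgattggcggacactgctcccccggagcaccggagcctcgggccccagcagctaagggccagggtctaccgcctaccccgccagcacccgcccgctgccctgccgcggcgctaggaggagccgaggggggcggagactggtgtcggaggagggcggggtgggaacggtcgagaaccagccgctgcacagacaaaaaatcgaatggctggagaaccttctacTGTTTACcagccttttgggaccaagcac
Trim63: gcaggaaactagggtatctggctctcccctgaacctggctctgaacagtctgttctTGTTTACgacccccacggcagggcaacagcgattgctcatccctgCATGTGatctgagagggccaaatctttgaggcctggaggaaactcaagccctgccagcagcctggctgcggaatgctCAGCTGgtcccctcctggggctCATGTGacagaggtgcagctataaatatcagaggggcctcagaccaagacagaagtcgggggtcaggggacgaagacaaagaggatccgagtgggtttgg

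All levels below are log2 ratios of cells over reference, centred on the median of each array. The direction of the ratio is likely and not stated, since contractile genes of muscle were strongly above the reference on every array, with a median between 6.51 and 7.38 in HDAC4 and between 7.46 and 7.79 in Neo over 23 probes. Markers of dividing myoblasts lay far below the reference, with medians of -3.49 to -2.27 in HDAC4 and -3.72 to -2.82 in Neo over 10 measured probes. Fibroblast markers had medians of -0.58 to 0.01 in HDAC4 and -0.63 to -0.20 in Neo. Of the tested probes, 9 of 10 for dividing myoblasts and 5 of 6 for fibroblasts were higher in HDAC4. Their median changes were 0.33 and 0.39, 0 passed the adjusted threshold in limma, and their part in the changes below was not tested. Of 16 liver marker probes 7 had any value, 1 to 5 of them on an array, and the medians of these few values, 0.25 to 0.74 in HDAC4 and 0.37 to 0.48 in Neo, were not below the reference. Between 17014 and 18521 probes had a value on the HDAC4 arrays and between 19248 and 22193 on the Neo arrays (exact permutation p = 0.0286). A floor of the reference signal was sought only among ratios at or above the reference. A floor of the cells' channel was not looked for. No value of the 10 probes lay at the inferred floor of the reference signal, where a ratio would follow the cells' channel alone. The 183 unlisted probes at that floor on all 8 arrays deviated from their own means by -0.58 to -0.08 on HDAC4 arrays and by -0.01 to 0.46 on Neo arrays, and below this deviation is called the floor offset. Of the liver marker values 65.0% lay at the floor, and whether the reference was liver was not tested. Of the contractile values 94.9% lay at the floor. Their medians were lower in HDAC4 by a mean log2 difference of -0.71 (exact two-sided permutation p = 0.0286, the smallest that 4 against 4 arrays allow), where the mean floor offset differed by -0.58. With the floor offset removed, an alternative chosen after seeing the data, the difference was -0.15 (exact permutation p = 0.714). Removing the offset also takes out any difference between HDAC4 and Neo cells that probes at the floor share. The origin of the offset was not tested. In RNA from whole cultures, fewer cells of a type and less RNA per cell cannot be told apart.

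The arrays numbered 1 stood apart from the other 6. The correlation of log2 ratios across probes was 0.94 between these 2 arrays, 0.89 to 0.90 between them and the rest, and 0.93 to 0.97 within the rest. The numbers come from the sample titles, and what they stand for is not given. Results are therefore given over all 8 arrays, with the number 1 as a batch, and without both arrays numbered 1.

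None of the 10 probes passed an adjusted p of 0.05 in limma between HDAC4 and Neo, where 21 of 16748 probes did, or 0.125%. At an unadjusted p under 0.05, 1 of the 10 was found, Sesn1, which is 10% against a background of 7.03% (4.4% for probes lower in HDAC4). With a median change of 0.02 over the 10 probes (HDAC4 minus Neo, log2) and of -0.0036 over all tested probes, 4 probes were on the lower side and 6 on the higher side. The 95% interval of the change lay inside a 2-fold difference in either direction for 8 of the 10 probes. For the other 2, Sesn2 and one Sesn3 probe, it reached past 2-fold on the higher side.

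**Figure D1:**
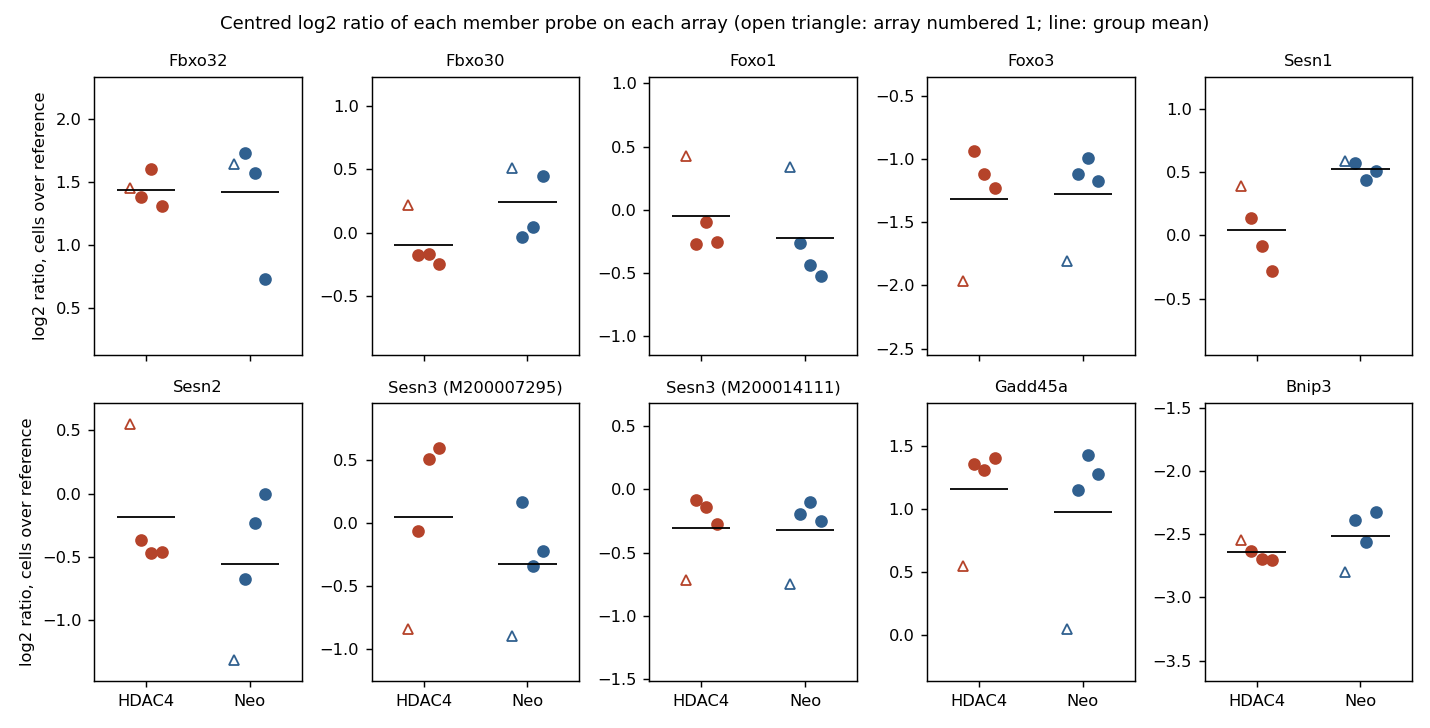
Centred log2 ratio of cells over reference for each of the 10 probes (vertical axis of each panel, all panels spanning the same range) on the 4 HDAC4 and 4 Neo arrays (horizontal axis), with open triangles for the arrays numbered 1 and lines for group means. The HDAC4 and Neo points are apart for Sesn1 alone, and both triangles lie outside the other 6 points for Foxo1, Foxo3, Gadd45a and both Sesn3 probes.

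Fbxo32, the atrophy ligase most often used as a gauge of muscle wasting, differed between HDAC4 and Neo by less than the spread between arrays. It stood at 1.45, 1.38, 1.60 and 1.31 in HDAC4 replicates 1 to 4, against 1.64, 1.73, 1.57 and 0.73 in Neo replicates 1 to 4. The groups overlapped, since all 4 HDAC4 arrays lay between Neo replicate 4, which was far below its group, and Neo replicate 1. The change was 0.02 ± 0.22 (SE; adjusted p = 0.995 in limma), with a 95% interval from 0.72-fold to 1.42-fold (HDAC4 over Neo). Without Neo replicate 4 the change was -0.21, with an adjusted p of 0.971, and without HDAC4 replicate 3 it was -0.04, so the sign rests on single arrays.

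Fbxo30, the ligase known as MUSA1 and held back by BMP signalling in mouse muscle, was lower in HDAC4 within every same-numbered pair, without passing the test. How many of all probes were lower in every such pair was not counted. The Fbxo30 values were 0.22, -0.18, -0.17 and -0.25 in HDAC4 replicates 1 to 4, against 0.51, -0.04, 0.05 and 0.45 in Neo. HDAC4 replicates 2, 3 and 4 lay below all 4 Neo arrays, and HDAC4 replicate 1 lay between the Neo values. The mean was -0.10 ± 0.21 in HDAC4 and 0.24 ± 0.28 in Neo (SD, n = 4 each). The change was -0.34 ± 0.17 (SE), with a limma p of 0.0843 and an adjusted p of 0.782. With the number 1 as a batch the interval was -0.62 to -0.05 (adjusted p = 0.291), and without both arrays numbered 1 it was -0.69 to -0.02 (adjusted p = 0.256).

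The FoxO genes themselves, whose products are governed mainly by phosphorylation and not by transcript level, also differed by less than the spread between arrays. Foxo1 had 0.42, -0.27, -0.10 and -0.26 in HDAC4 replicates 1 to 4, against 0.34, -0.26, -0.44 and -0.52 in Neo. Foxo3 had -1.97, -0.94, -1.12 and -1.23 in HDAC4, against -1.81, -1.12, -0.996 and -1.18 in Neo. For both genes the groups overlapped and the arrays numbered 1 of HDAC4 and Neo lay together, above the rest for Foxo1 and below the rest for Foxo3. The change of Foxo1 was 0.17 ± 0.23 (SE; adjusted p = 0.941) and that of Foxo3 -0.04 ± 0.25 (SE; adjusted p = 0.988). Leaving out 1 array moved Foxo1 between 0.01, without HDAC4 replicate 1, and 0.36, without Neo replicate 1. It moved Foxo3 between -0.22, without Neo replicate 1, and 0.18, without HDAC4 replicate 1. With the number 1 as a batch the 95% intervals narrowed to -0.07 to 0.41 for Foxo1 and -0.29 to 0.21 for Foxo3.

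Sesn1, a sestrin long known as a p53 target, was the gene whose groups did not overlap. It stood at 0.39, 0.14, -0.09 and -0.28 in HDAC4 replicates 1 to 4, against 0.59, 0.57, 0.44 and 0.51 in Neo. All 4 HDAC4 arrays lay below all 4 Neo arrays, with the HDAC4 values spread widely (0.04 ± 0.29, SD, n = 4) and the Neo values close together (0.53 ± 0.07, SD, n = 4). Groups did not overlap for 5.25% of the tested probes, and for 3.18% with HDAC4 as the lower group.

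The change of Sesn1 was -0.49 ± 0.16 (SE), a level 1.40-fold lower in HDAC4 with a 95% interval from 1.09-fold to 1.80-fold. It did not pass over all probes (limma p = 0.0130, adjusted p = 0.521; exact two-sided permutation p = 0.0286, the smallest possible). Of the 16748 tested probes 414, or 2.47%, had a p as small. With the number 1 as a batch the adjusted p was 0.151, and without both arrays numbered 1 the change was -0.58 with an adjusted p of 0.0725. Within the pair numbered 1 the difference was -0.19, with 1 array per group and no test. Which of the 2 annotated Sesn1 starts these transcripts use was not measured. The number of measured probes was also lower in HDAC4, as were the contractile medians before the floor offset was removed, and their part in the result was not tested. No Sesn1 value was at the inferred floor of the reference signal.

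The probes nearest to Sesn1 over the 8 arrays were those of Palld, an actin-associated scaffold protein, Lrrc8c, a subunit of volume-regulated anion channels, and Rccd1. Nearness was the mean absolute difference between the deviations of 2 probes from their own means, and it was 0.07 for each of the 3, against a median of 0.32 over 9571 named probes. Their changes were -0.42 for Palld, -0.48 for Lrrc8c and -0.41 for Rccd1, and none passed (adjusted p = 0.465, 0.521 and 0.689). Changes close to that of Sesn1 were built into this choice, because the deviations compared include the difference between HDAC4 and Neo.

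Sesn2, the sestrin that senses leucine and is induced by the integrated stress response, varied more between arrays than between groups. It stood at 0.55, -0.37, -0.47 and -0.46 in HDAC4 replicates 1 to 4, against -1.31, -0.68, -0.23 and 0.00 in Neo. The arrays numbered 1 lay at opposite ends, HDAC4 replicate 1 above all others and Neo replicate 1 below all others, a difference of 1.87. The change over all arrays was 0.37 ± 0.32 (SE; adjusted p = 0.895), and without both arrays numbered 1 it was -0.13 ± 0.17 (SE; adjusted p = 0.730). Without HDAC4 replicate 1 or Neo replicate 1 alone it was 0.12 in either case, and without Neo replicate 4 it was 0.55. The sign of the Sesn2 change thus depended on the pair numbered 1. The probes nearest to Sesn2 were 2 of Hmgb1, a chromatin protein, and 1 of Lxn, at 0.15, 0.16 and 0.17 against a median of 0.42. For Fbxo30 they were Ube2f, Edem3 and Cop1, at 0.06, 0.06 and 0.07 against 0.29.

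Sesn3, a sestrin that FoxO factors are known to induce, was read by 2 probes. The first stood at -0.84, -0.07, 0.51 and 0.59 in HDAC4 replicates 1 to 4, against -0.89, 0.17, -0.34 and -0.22 in Neo. The second stood at -0.72, -0.08, -0.14 and -0.28 in HDAC4, against -0.75, -0.19, -0.10 and -0.25 in Neo. On the first probe HDAC4 replicates 3 and 4 lay clear above the Neo arrays. On the second probe the groups overlapped, with HDAC4 replicate 2, at -0.08, just above the highest Neo array, at -0.10. The changes were 0.37 ± 0.33 (SE; adjusted p = 0.895) and 0.02 ± 0.19 (SE; adjusted p = 0.995). Leaving out 1 array moved the first probe between 0.18, without Neo replicate 1, and 0.67, without HDAC4 replicate 1 (adjusted p = 0.327 in limma), with 0.22 and 0.19 without HDAC4 replicates 3 and 4. The second ranged from -0.12 to 0.16 without the same arrays numbered 1. The first probe minus the second was 0.35 ± 0.48 in HDAC4 and 0.0014 ± 0.26 in Neo (SD, n = 4 each), a difference of 0.35 with an exact permutation p of 0.229. With the number 1 as a batch the 95% interval was -0.06 to 0.80 for the first probe and -0.20 to 0.24 for the second.

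Gadd45a, a growth-arrest and DNA-damage gene that promotes fibre atrophy in mouse muscle, had 0.55, 1.35, 1.31 and 1.41 in HDAC4 replicates 1 to 4, against 0.05, 1.15, 1.43 and 1.28 in Neo. The arrays numbered 1 were low in both groups and the other 6 lay close together. The change was 0.18 ± 0.32 (SE; adjusted p = 0.958), with -0.13 when Neo replicate 1 was left out and 0.38 when HDAC4 replicate 1 was. With the number 1 as a batch the 95% interval was -0.09 to 0.45.

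Bnip3, a mitophagy receptor induced by FoxO3 and by low oxygen, had -2.55, -2.63, -2.69 and -2.70 in HDAC4 replicates 1 to 4, against -2.80, -2.39, -2.56 and -2.32 in Neo. The HDAC4 arrays lay within the range of the Neo arrays, and Neo replicate 1 was the lowest of all 8. The change was -0.13 ± 0.14 (SE; adjusted p = 0.926), and without both arrays numbered 1 it was -0.25 ± 0.10 (SE; adjusted p = 0.259). Leaving out Neo replicate 1 alone gave -0.22, and leaving out Neo replicate 2 or 4 gave -0.08 and -0.06.

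**Figure D2:**
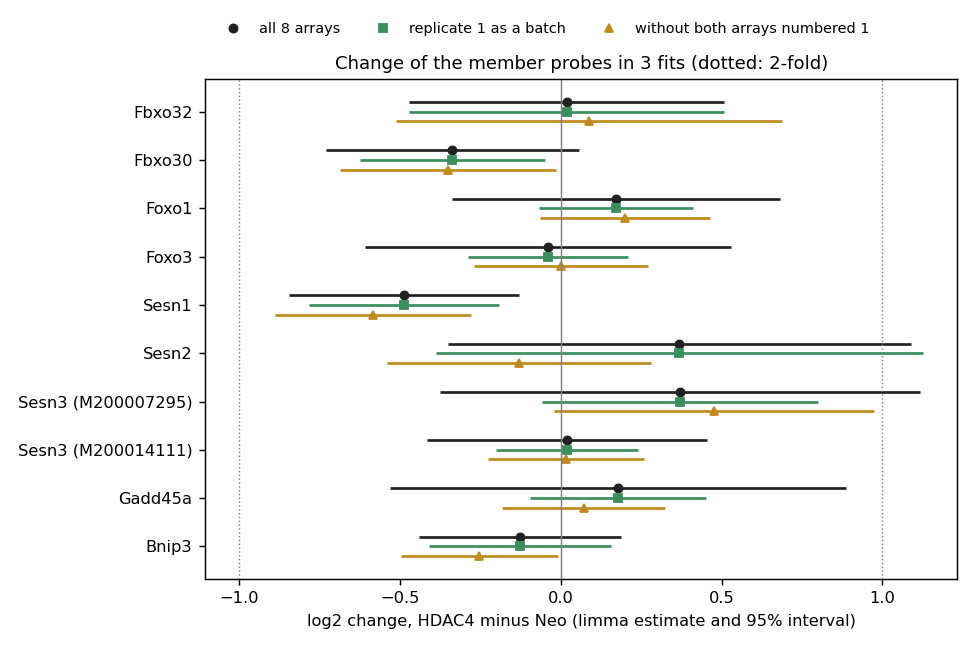
Log2 change, HDAC4 minus Neo (horizontal axis), of the 10 probes (vertical axis) with 95% limma intervals in 3 fits, over all 8 arrays, with replicate 1 as a batch, and without both arrays numbered 1. The Sesn1 interval lies below 0 in each fit, that of Fbxo30 in the fits that set the arrays numbered 1 apart, and that of Bnip3 without those arrays, while the Sesn2 estimate changes sign.

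With the number 1 as a batch the intervals of 8 of the 10 probes were narrower, those of Fbxo32 and Sesn2 being the exceptions. In that fit 9 of the 10 intervals lay inside a 2-fold difference, the exception being Sesn2. At an unadjusted p under 0.05 the count was then 2, Sesn1 and Fbxo30, or 20% against a background of 13.5%. Without both arrays it was 3, with Bnip3 added, or 30% against a background of 18.2%. No probe of the set passed the adjusted threshold in either fit, where 0.645% and 2.26% of all tested probes did.

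The arrays numbered 1 differed from the others at several genes of the set, in both groups alike. In the fit with group and batch, 5 of the 10 probes differed at an adjusted p under 0.05 in limma, or 50%, against 21.5% of all probes. Gadd45a was lower on the arrays numbered 1 by a log2 change of -1.02 ± 0.14 (SE; adjusted p = 0.00345), Foxo3 by -0.79 ± 0.13 (SE; adjusted p = 0.00598), and the Sesn3 probes by -0.97 ± 0.22 and -0.56 ± 0.11 (SE; adjusted p = 0.0177 and 0.0131). Foxo1 was higher there by 0.69 ± 0.12 (SE; adjusted p = 0.00848). In these same 5 probes both arrays numbered 1 lay outside the range of the other 6, as they did for 35.4% of all probes with 8 values.

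**Figure D3:**
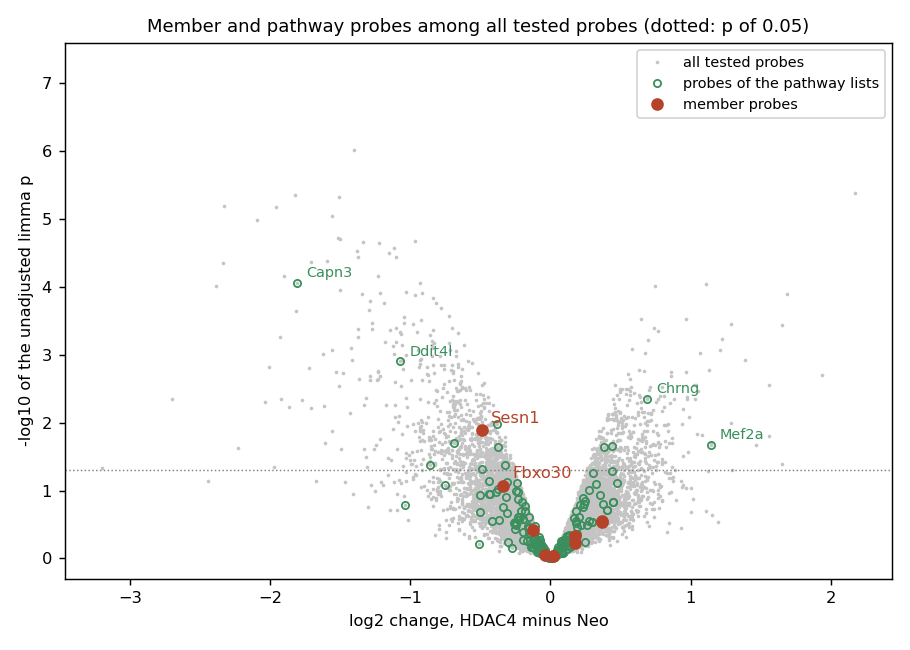
Log2 change, HDAC4 minus Neo (horizontal axis), against -log10 of the unadjusted limma p (vertical axis) for the 16748 tested probes in grey, the probes of 7 pathway lists as open green circles and the 10 probes of the set in red. Of the red points only Sesn1 lies above the dotted line at a p of 0.05, well inside the grey cloud.

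Genes that act with the set were followed in 7 lists, of which 123 genes and 166 probes were tested. None of the 166 probes passed the adjusted threshold in limma, against 0.125% of all probes. At an unadjusted p under 0.05 there were 12, with 8 lower and 4 higher in HDAC4, or 7.23% against 7.03% of all probes. The median change was -0.04.

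Among other ligases, ubiquitin and catabolic genes of atrophy, 13 of 26 probes were lower and 13 higher, with a median change of -0.0044. The largest separation was at Capn3, the muscle calpain, where the probe with the smallest p was at 2.98 ± 0.58 in HDAC4 and 4.79 ± 0.29 in Neo (SD, n = 4 each), 3.51-fold lower (log2 change -1.81 ± 0.28, SE; adjusted p = 0.0577 in limma). The adjusted p of this probe was 0.0337 with the number 1 as a batch, 0.0715 in the fit blocked on replicate number and 0.219 with the floor offset removed, and 5 of its 8 values were at the reference floor. A second Capn3 probe, with no value at the floor, had a change of -0.44 ± 0.25 (SE; adjusted p = 0.815). Zfand5, a zinc-finger protein that aids proteasomal breakdown, had a change of -0.69 ± 0.25 (SE; adjusted p = 0.583) on 1 probe and of -0.10 (adjusted p = 0.947) on the other, with -0.39 for their mean.

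Autophagy and lysosome genes, another arm of FoxO-driven breakdown, had 17 of 29 probes lower and a median change of -0.06. Map1lc3b, which coats the autophagosome membrane, had a change of -0.37 ± 0.14 (SE; adjusted p = 0.618) on a probe whose groups did not overlap. Its other probe, whose groups overlapped, was at 0.05 (adjusted p = 0.979), and their mean was at -0.16. In this list the groups did not overlap for 3 of 29 probes, all lower in HDAC4, against 3.18% of all tested probes. Both others were probes of Gabarapl2, at -0.11 and -0.23 (adjusted p = 0.909 and 0.808). Wipi1, which binds the lipid that marks forming autophagosomes, had -0.49, -0.37 and -0.43 on 3 probes, and the lysosomal protease gene Ctsd had 0.28 (0.17 without Neo replicate 4). Of the genes of mitophagy and low-oxygen response, which flank Bnip3, 16 of 22 probes were lower, with a median of -0.14. P4ha2, a collagen prolyl hydroxylase, had -0.39 and the mitophagy kinase Pink1 had -0.32, while Slc2a1, the glucose transporter GLUT1, had 0.38. For these 3 genes the groups did not overlap and adjusted p was between 0.473 and 0.699. Of the 22 probes, 3 lower and 1 higher had groups without overlap, against 5.25% of all tested probes (3.18% lower). The remaining one was a probe of Ndrg1 at -0.24 (adjusted p = 0.770), whose other probe, at -0.25, had overlapping groups.

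Upstream of FoxO, the insulin-like growth factor, PI3K, Akt and mTOR list had 19 of 29 probes higher, with a median change of 0.07 and 0 at an unadjusted p under 0.05. Of 3 probes for Pik3r1, a regulatory subunit of PI3K, 2 were on the higher side, at 0.44 and 0.48, and the third on the lower side, at -0.25 (adjusted p = 0.715, 0.772 and 0.902). The second of these was at 0.25 without Neo replicate 4, and the first at 0.22 without both arrays numbered 1. The mTORC2 subunit Rictor was at -0.50 on 1 probe (adjusted p = 0.821), with -0.30 without HDAC4 replicate 3 and -0.33 without Neo replicate 1. The other Rictor probe was at 0.08 (adjusted p = 0.981), and the mean of both at -0.19. Among sestrin partners 11 of 19 probes were lower, with a median of -0.05. Ddit4l (REDD2), an inhibitor of mTORC1, had a change of -1.07 ± 0.24 (SE; adjusted p = 0.207), with all 8 values at the reference floor. With the floor offset removed its change was -0.49, and without both arrays numbered 1 it was -1.33 with an adjusted p of 0.0320. Its relative Ddit4 (REDD1) had 0.35, but 0.17 without Neo replicate 1 and 0.11 without both arrays numbered 1. Mios, a subunit of the GATOR2 complex that sestrins bind, had -0.38, but -0.24 without Neo replicate 1.

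Of p53 and stress-response genes 13 of 19 probes were lower, with a median change of -0.06. Atf3, a stress-induced factor measured on 3 HDAC4 and 4 Neo arrays, had -0.86 ± 0.36 (SE; adjusted p = 0.699), Atf4, a master factor of the integrated stress response, had -0.21 and -0.06 on its 2 probes, and Gadd45b, a relative of Gadd45a, had 0.30 (0.19 without Neo replicate 4). In the denervation list 15 of 26 probes were lower, with a median of -0.08. At an unadjusted p under 0.05 there were 3 probes, or 11.5%, against 7.03% of all probes in either direction. All 3 were higher in HDAC4, a combination of p and direction seen in 2.63% of all probes. They were Mef2a, a binding partner of class IIa deacetylases, at 1.15 ± 0.42 (SE; adjusted p = 0.599), and the acetylcholine receptor subunits Chrng at 0.69 ± 0.19 (SE; adjusted p = 0.351) and Chrnb1 at 0.44 ± 0.16 (SE; adjusted p = 0.607). Mef2a had an adjusted p of 0.0295 with the number 1 as a batch and 0.0443 without both arrays numbered 1, but 0.0633 in the fit blocked on replicate number. Chrng, with 7 values at the floor, had an adjusted p of 0.0324 with the floor offset removed. Of the relay from HDAC4 to the ligases, no Dach2 probe was tested. Myog, the myogenin gene, was at 0.19 (adjusted p = 0.937 in limma), or 0.77 with the floor offset removed (adjusted p = 0.712), with all 8 values at the floor.

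**Figure D4:**
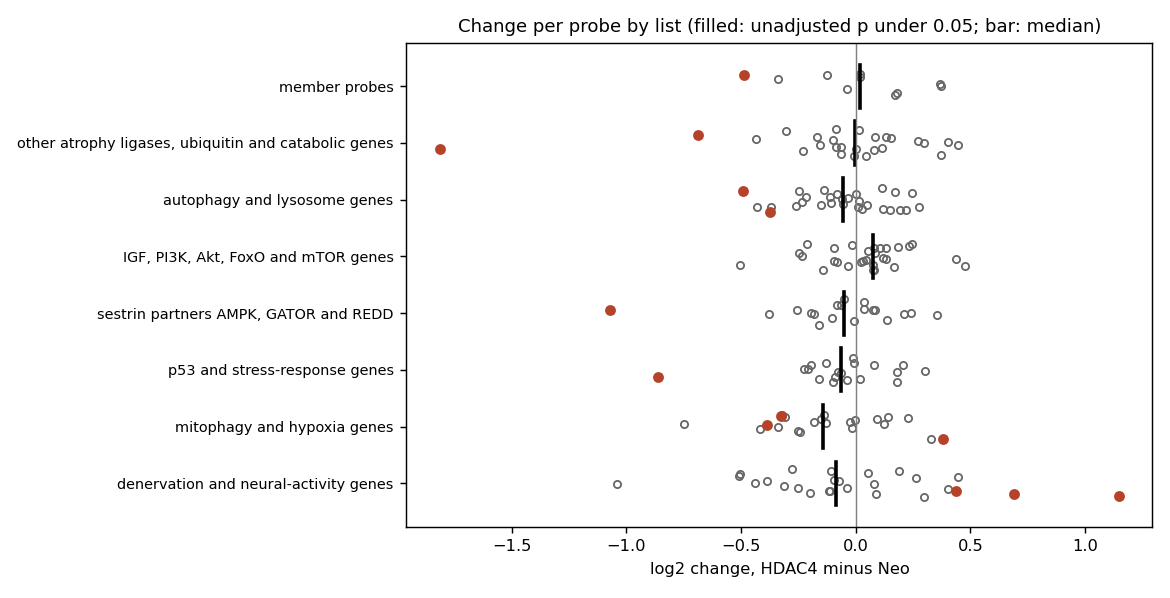
Log2 change, HDAC4 minus Neo (horizontal axis), of each tested probe of the set and of the 7 pathway lists (vertical axis, points spread for visibility), with filled points for an unadjusted limma p under 0.05 and bars for the list medians. The medians lie between -0.14 and 0.07, and the points farthest from 0 are Capn3 at -1.81 and Mef2a at 1.15.

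Without both arrays numbered 1, 8 of 157 pathway probes passed the adjusted threshold, or 5.1% against 2.26% of all probes. They were 2 probes of Chrne, the adult acetylcholine receptor subunit, at -1.86 and -1.57, 2 of Runx1, a factor induced by denervation, at 0.57 and 0.60 (0.45 and 0.40 over all 8 arrays), and 1 each of Mef2a, Ddit4l, Chac1 and Trib3. Another Runx1 probe did not pass, at 0.43 in this fit (adjusted p = 0.174) and 0.30 over all 8 arrays. Chac1 and Trib3, targets of the integrated stress response, had changes of -0.63 and -0.65 (adjusted p = 0.0283 and 0.0250), against -0.13 and -0.19 over all 8 arrays. The Chrne probes had 8 and 7 values at the floor, and over all 8 arrays their changes were -1.04 and -0.51, or -0.46 and -0.03 with the floor offset removed. Apart from Mef2a and Ddit4l, these genes are named because they passed in this fit.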

How the data were processed

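Each array gave 1 value per probe, and per the labels' protocols sample RNA was labelled with Cy5 and reference RNA with Cy3 on every array, with no dye swap. The authors deposited log2 ratios, whose column medians of 0.0058 to 0.0286 show that they were centred or nearly so. The sources used here do not give how signals were corrected, normalized or filtered. Probes were named through the platform annotation, with symbols updated through gene identifiers in RefSeq GRCm38.p6.

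Each array was centred on its median. Probes were kept as separate features, because a mean over probes of unlike level moves with missing values. Probes with at least 3 values in each group, 16748 in all, were compared with limma 3.58.1 in R 4.3.3 (lmFit, eBayes), with Benjamini-Hochberg adjustment over all of them at 0.05. The code was tested on simulated data. The number of arrays limits the precision. Values at or above 10 units (10 times the ratio) and whole within 0.001 were taken as having the reference at its floor, an inference from the values. Alternatives were other scalings, filters, batch terms, floor treatments and leaving out arrays. Promoter motifs were searched on both strands.

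The named genes are every probe of the set, the probes of each pathway list past the threshold with its 3 smallest p, and the 3 nearest probes of the 3 set probes with the smallest p. Gabarapl2, Ndrg1 and Myog are named outside this rule, to complete a count or because the relay through myogenin is described above. The set, lists and rules were chosen with earlier results of these data known. Deviations of same-numbered HDAC4 and Neo arrays from their group means correlated at 0.53, 0.31, 0.21 and 0.11 for numbers 1 to 4, all above the limit of 0.1 for treating the numbers as pairs. Unlike numbers correlated at -0.43 to 0.27, and HDAC4 replicates 3 and 4 correlated more with Neo replicate 2 (0.22 and 0.27) than with their own number, as did HDAC4 replicate 4 with Neo replicate 3 (0.22).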

Additional observations from a re-analysis of the deposited data

Results flagged for a closer look

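In 9 of 61 groups of 4 arrays, 1 array lay far from the other 3 by Dixon's criterion, which chance meets in about 1 of 20 groups. HDAC4 replicate 1 was that array in 5 cases and Neo replicate 4 in 4.

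HDAC4 replicate 1 was high for Fbxo30, at 0.22 with the other HDAC4 arrays between -0.25 and -0.17, and for Sesn2, at 0.55 with the others between -0.47 and -0.37. It was low for Gadd45a, at 0.55 with the others between 1.31 and 1.41. It was also low for Ctsd, at 0.27 with the others between 0.56 and 0.58, and high for Ddit4, at -1.87 with the others between -2.15 and -2.11. Neo replicate 4 was low for Fbxo32, at 0.73 with the other Neo arrays between 1.57 and 1.73. It was low as well for Ctsd, at -0.12 with the others between 0.29 and 0.37, for a Pik3r1 probe, at -1.16 with the others between -0.31 and -0.23, and for Gadd45b, at -0.61 with the others between -0.23 and -0.17. The reason was not tested.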

How the results depend on the processing

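Under the 19 alternatives, no probe of the 10 passed the adjusted threshold. Sesn1 kept its direction and an unadjusted limma p under 0.05 in all 19. Its changes lay between -0.60 and -0.38 and its adjusted p between 0.0725 and 0.983. Its sign could not turn when arrays were left out, because its groups did not overlap. Several alternatives, among them the block and the floor treatments, left its change at -0.49. How many of all probes behave likewise was not counted. Fbxo30 ranged from -0.44 to -0.25. With the replicate number as a block, the adjusted p was 0.268 for Sesn1 and 0.418 for Fbxo30, and the block ended or made no call among the 10 probes. The count at an unadjusted p under 0.05 was 1 over all arrays (7.03% of all tested probes), 2 with the block (11.5%), 2 with replicate 1 as a batch (13.5%) and 3 without both arrays numbered 1 (18.2%). With 1 array left out it was 3 without HDAC4 replicate 1 (13.4%), 2 without Neo replicate 2 (5.62%) and 1 otherwise (4.83% to 9.52%).

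Small changes turned sign. Fbxo32 was -0.0012 after quantile normalization, -0.04 without HDAC4 replicate 3 and -0.21 without Neo replicate 4, the lowest value, with 0.12 the highest when 1 array was left out. Foxo3 was 0.0009 without both arrays numbered 1, and leaving out 1 array gave -0.22 to 0.18 (0.18 without HDAC4 replicate 1, 0.01 without Neo replicate 2, 0.05 without Neo replicate 3). Sesn2 was -0.13 without both arrays numbered 1. The second Sesn3 probe was -0.05, -0.03 and -0.12 without HDAC4 replicate 2, HDAC4 replicate 3 and Neo replicate 1, with 0.16 the highest value when 1 array was left out and 0.20 for the mean of both Sesn3 probes. Gadd45a was -0.13 without Neo replicate 1 and at most 0.38. The cause was not tested.

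Of the pathway probes, 0 passed over all arrays (0.125% of all tested probes), 1 after quantile normalization (0.149%), 2 with replicate 1 as a batch (0.645%), 8 without both arrays numbered 1 (2.26%), and 1 with the floor offset removed (0.0239%). With 1 array left out, 0 to 1 passed: 1 without HDAC4 replicate 3 (0.0593%) and 1 without Neo replicate 1 (0.452%).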
